A study of Mus musculus with 10 samples.

Results

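The regions described here are isolated CpG islands on a methylation array of the mouse genome, that is, short clusters of array probes with no other cluster nearby. A cluster was a run of probes whose starts lay at most 500 bp apart. An isolated island was an autosomal cluster of 3 to 10 probes whose nearest other cluster, of any size, lay 150 kb or more away on both sides. This rule used probe positions alone and no measured value. It found 1017 isolated islands among 12256 autosomal clusters of 3 to 10 probes, and they held 5781 probes. The other 11239 clusters of the same size range are the comparison set. Among all autosomal clusters, 1277 of 15109 were isolated at this distance whatever their size.

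CpG islands are stretches of DNA in which the CpG dinucleotide is kept at a high density. Many of them overlie promoters and are free of methylation in most tissues, while islands outside promoters are more often methylated in a tissue-dependent way. Gene-rich stretches of a chromosome hold many islands close together, and an island with wide empty flanks lies in a sparse stretch, such as the deserts around genes with large regulatory domains. No gene annotation on the array's build, mm9, was used here, so the islands are named by position, and which gene, exon or promoter they overlap is not analysed here.

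Methylation was measured in left hemibrain of male C57BL/6j mice, an inbred strain. From 3 weeks of age, and for 24 weeks, each animal ate 1 of 3 diets matched for calories. ERD, enriched in n-3 polyunsaturated fatty acids, had an n-3:n-6 ratio of 7:1 (4 arrays). BLD, the balanced diet, had 1:1 (3 arrays), and STD, the standard diet, had 1:6 (3 arrays). A hemibrain mixes neurons, glia and other cells, so each value is an average over them, and a change in cell makeup cannot be told apart from a change within cells. Whether each array is its own animal is not stated in the labels, so the p-values speak of the spread between samples, which may be technical. DNA carrying 5-methylcytosine was pulled down with an antibody, labelled with Cy5 and hybridised beside Cy3-labelled input DNA of the same sample. The value of an island is the mean over its probes of log2(Cy5/Cy3) after the median of all probes of the array was set to 0. A value above 0 means more pulled-down DNA relative to input than at the median probe of that array. The number of CpGs near a probe was not corrected for, and the scale gives no percentage of methylated CpGs.

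The arrays did not spread their values equally. The interquartile range over the isolated islands was 0.38 ± 0.03 on the log2 scale on ERD arrays (SD, n = 4), 0.36 ± 0.11 on BLD arrays (n = 3) and 0.26 ± 0.04 on STD arrays (n = 3). BLD replicate 3, at 0.23, lay with the STD arrays, which reached 0.21 to 0.29, and it shared its slide with STD replicate 1. The other slides held arrays of a single diet, so a difference between diets can hardly be told apart from one between slides. The share of island spots well above background in both channels was 84.7 to 94.7% on ERD arrays, 88.4 to 90.8% on BLD arrays and 76.7 to 89.4% on STD arrays, with STD replicate 3 lowest. Over the isolated islands, the mean Pearson r between 2 arrays of a diet was 0.674 for ERD, 0.724 for BLD and 0.414 for STD, as a description of arrays that share every probe sequence. Between diets it was 0.659 for ERD with BLD, 0.457 for ERD with STD and 0.469 for BLD with STD. STD arrays were thus no closer to each other than to arrays of the other diets.

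Isolated islands had slightly lower methylation signal than other clusters, and strongly positive islands were rarer among them. Their median level, taken as the mean of the 3 diet means, was -0.07, against -0.04 in the other clusters of 3 to 10 probes. The 10th percentiles were close, at -0.31 in isolated islands and -0.29 in other clusters, while the 90th percentiles were 0.20 in isolated islands and 0.32 in other clusters. A level above 0.5 was found in 35 isolated islands (3.44%) and in 569 other clusters (5.06%). On all 10 arrays, 57 isolated islands (5.60%) lay above the array median, against 992 other clusters (8.83%). Below the median on all 10 arrays were 171 isolated islands (16.8%) and 1691 other clusters (15.0%).

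The lower median was present on every array but was small. The median of the isolated islands was -0.05, -0.07, -0.10 and -0.08 on the ERD arrays, -0.09, -0.01 and -0.05 on the BLD arrays, and -0.04, -0.07 and -0.05 on the STD arrays. The difference from the other clusters was negative on 10 of 10 arrays and averaged -0.026 ± 0.012 (SD, n = 10). By diet it averaged -0.027 in ERD, -0.035 in BLD and -0.014 in STD. No test was made of it, because all arrays read the same probes and the islands are not replicates. After a normexp background correction in place of the scanner's own it was -0.008, and 7 isolated islands in place of 171 lay below the median on all arrays.

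The difference was larger among small islands. Isolated islands of 3 to 5 probes (n = 522) had a median level of -0.04, against 0.004 in other clusters of that size. Of these small isolated islands 6.32% lay above the median on all arrays, against 11.1% of the other small clusters. Isolated islands of 6 to 10 probes (n = 495) had a median of -0.09, and the other clusters of that size had -0.08. Their shares above the median on all arrays were 4.85% in isolated islands and 5.64% in other clusters. The isolated islands and the other clusters were alike in probe length, which averaged 46.6 and 46.7 nt, and in log2 input signal, with medians of 9.86 and 9.87.

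Clusters past about 50 kb from their nearest neighbour differed little in level with distance. Clusters whose nearest neighbour lay under 5 kb away had a median of 0.01, and those at 25 to 50 kb had -0.06. Within the isolated islands the median was -0.06 at 150 to 200 kb (n = 307), -0.07 at 200 to 300 kb (n = 297), -0.09 at 300 to 500 kb (n = 232), -0.07 at 500 to 1000 kb (n = 131) and -0.08 beyond 1000 kb (n = 50). Level and distance had a Spearman rho of -0.045 over the 1017 isolated islands and of -0.129 over the other clusters. Other clusters at 50 to 100 kb and at 100 to 150 kb had medians of -0.07 and -0.08, close to those of the isolated islands. Of the 50 islands beyond 1000 kb, 1 lay above the median on all arrays and 0 had a level over 0.5.

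**Figure D1:**
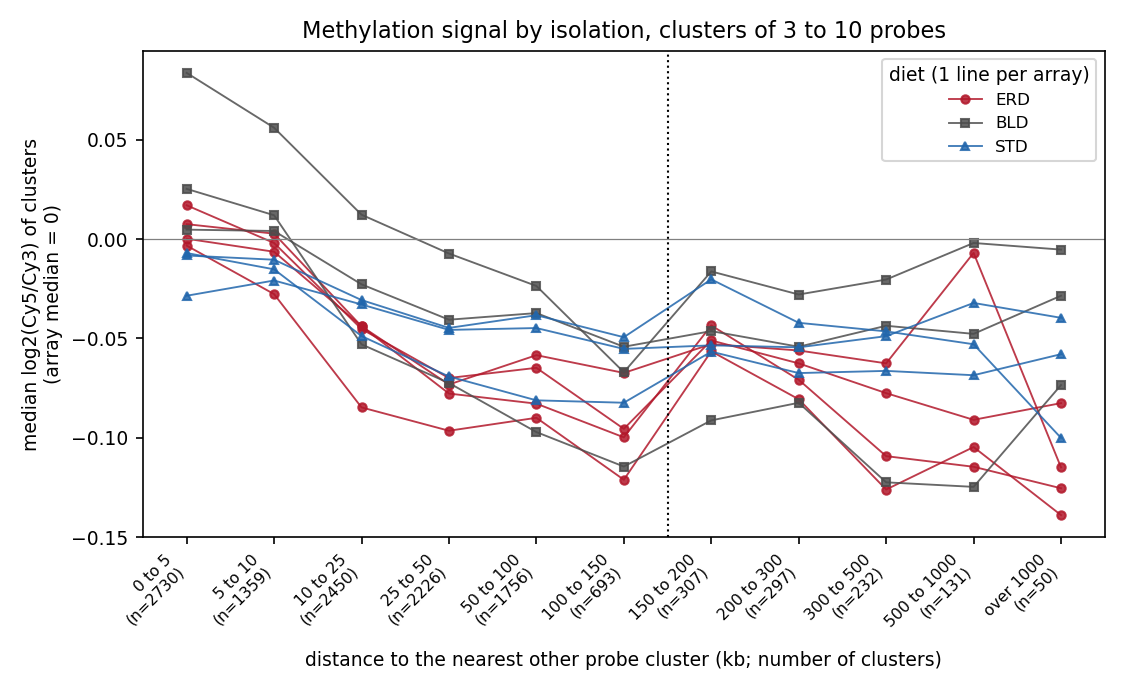
Median log2(Cy5/Cy3) of autosomal clusters of 3 to 10 probes (array median = 0), by distance to the nearest other cluster in kb, with 1 line per array coloured by diet and the isolated islands right of the dotted line at 150 kb. On all 10 arrays the medians of the isolated islands lay below those of clusters with a neighbour under 5 kb away.

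The rule's limit of 150 kb falls in a continuous range of distances. The 3 islands just inside it, on chromosomes 9, 12 and 9, had nearest clusters 150.032 to 150.098 kb away and levels of -0.13 to -0.09. The 3 clusters just outside it, on chromosomes 1, 17 and 17, had nearest clusters 149.725 to 149.902 kb away and levels of -0.18 to 0.51. The 10 clusters at a chromosome's end, which have a neighbour on 1 side only, were not counted as isolated.

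Isolation was unevenly spread over the chromosomes. Isolated islands made up 15.0% of the clusters of 3 to 10 probes on chromosome 18, 14.8% on chromosome 16 and 14.0% on chromosome 3, but 3.33% on chromosome 11, which has 1081 such clusters, and 4.69% on chromosome 7. Chromosome 1 held the most, with 96. The median level of the isolated islands was below that of the other clusters on 14 of 19 autosomes. It was lowest on chromosome 5 at -0.11, and it was close to the array median on chromosome 6 at -0.005.

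A few isolated islands stood far above the array median on every array. Levels depended on the background correction. After normexp the levels of the isolated islands had a Spearman rho of 0.552 with those given here. In that setting 28 isolated islands in place of 57 lay above the median on all arrays. The island with the highest level lay on chromosome 18 from 4052532 to 4052890, with 3 probes and its nearest clusters 188 kb and 300 kb away. Its values were 0.94, 1.94, 1.29 and 1.21 in ERD, 1.23, 1.41 and 0.59 in BLD and 0.62, 0.92 and 0.66 in STD. All 10 arrays were above 0.5 and the diets overlapped. Of its spots 70.0% were well above background, with 55.6% in STD. Of its 3 probes 1 was well above background on all arrays. The island's left neighbour, another isolated island of 3 probes, had a level of 0.495, while its right neighbour had -0.27.

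The island on chromosome 1 from 188791248 to 188792165 rests on more probes. Its 7 probes were all well above background on all arrays and all 7 had a positive level, between 0.55 and 1.52. The island's values were 0.82, 1.86, 0.71 and 1.28 in ERD, 1.21, 1.07 and 0.75 in BLD and 0.62, 1.56 and 0.52 in STD. The diets overlapped, and the highest value of ERD and of STD was that of replicate 2. Clusters 218 kb before it and 247 kb after it had levels of -0.02 and -0.23.

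The other 6 islands of the highest 8 had levels of 0.71 to 0.92. They lay on chromosome 5 from 97820982, chromosome 8 from 9207733, chromosome 1 from 120733925, chromosome 17 from 91487196, chromosome 14 from 106505252 and chromosome 3 from 61962735. Every probe of these 6 islands had a positive mean level. On chromosome 17 the island, with 8 probes, had 0.66, 1.44, 0.85 and 1.41 in ERD, 0.78, 0.66 and 0.49 in BLD and 0.57, 1.18 and 0.12 in STD. On chromosome 3 the island, with 6 probes, had 0.68, 1.18, 0.53 and 0.99 in ERD, 0.65, 0.72 and 0.46 in BLD and 0.66, 1.11 and 0.30 in STD. In both islands the diets overlapped and STD replicate 3 was the lowest array.

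The lowest islands reached less far from the array median than the highest. The lowest lay on chromosome 1 from 78485006 to 78485526, with 6 probes and a level of -0.68. Its values were -1.05, -0.70, -0.86 and -0.80 in ERD, -1.03, -0.65 and -0.43 in BLD and -0.72, -0.56 and -0.18 in STD. All arrays were below the median and the diets overlapped. All 6 probes had a negative level, from -1.28 to -0.22.

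Next came an island of 3 probes on chromosome 6 from 13019691 to 13020168, with a level of -0.63. Its values were -1.22, -1.23, -0.86 and -0.93 in ERD, -0.61, -0.59 and -0.37 in BLD and -0.66, -0.23 and -0.07 in STD. The ERD arrays were all lower than the BLD and STD arrays, but no probe of this island was well above background on all arrays. On chromosome 10, the low island from 27794339, with 4 probes and a level of -0.48, had the nearest cluster of 3 or more probes before it at 1699 kb with a level of 0.36, and the one after it at 1072 kb with -0.01.

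**Figure D2:**
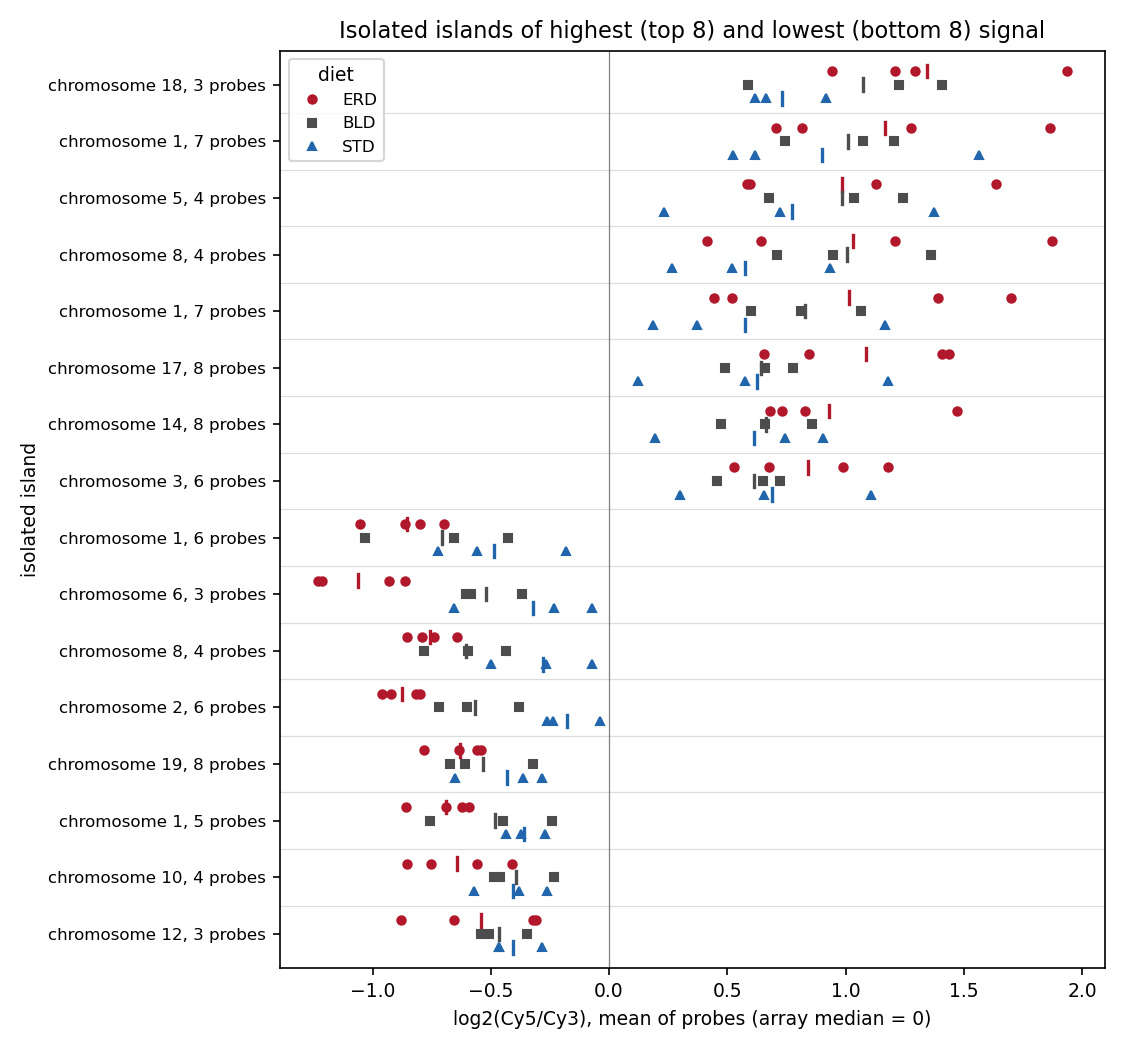
Each row is an isolated island, with the 8 of highest level above and the 8 of lowest level below. Points are arrays by diet (log2(Cy5/Cy3), array median = 0) and vertical ticks are diet means. The highest islands were above 0 and the lowest below 0 on every array, and the widest range, 0.41 to 1.87, is that of the ERD arrays at the chromosome 8 island among the highest.

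The most isolated islands had no common level. The island farthest from any other lay on chromosome 14 from 94289899 to 94290301, with 3 probes and its nearest cluster 5155 kb away. It had -0.26, -0.48, -0.55 and -0.38 in ERD, -0.26, -0.25 and -0.40 in BLD and -0.57, -0.34 and -0.08 in STD. It was below the array median on every array and the diets overlapped. Within it, the first probe had means of 0.54 in ERD, 0.46 in BLD and 0.27 in STD, and the third probe had -1.06 in ERD, -0.70 in BLD and -0.40 in STD.

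A sparse stretch of chromosome 14 held 3 consecutive isolated islands with differing levels. The island from 106505252 had a level of 0.74, the next one, from 109310483, lay 2804 kb further on at -0.32, and the one from 112074402 lay another 2764 kb on at 0.07. The middle island had -0.54, -0.93, -0.22 and -0.53 in ERD, -0.51, -0.43 and -0.27 in BLD and 0.06, -0.05 and 0.02 in STD. All ERD and BLD arrays were below all STD arrays, and 1 of its 3 probes was not well above background on any array. The remaining most isolated islands, on chromosome 12 from 96933369 and chromosome 3 from 72861250, had levels of -0.08 and 0.07.

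The levels of neighbouring isolated islands were hardly correlated. Over 384 pairs of neighbouring isolated islands, 150.182 to 6388.327 kb apart, levels had a Spearman rho of 0.061 and a median absolute difference of 0.17. Neighbouring clusters under 1 kb apart had a rho of 0.254 over 387 pairs, those 1 to 5 kb apart had 0.160 and those 10 to 25 kb apart had 0.034. The median absolute difference was 0.17, 0.18 and 0.22 in these, so by that measure isolated pairs were not farther apart. These correlations describe pairs that share all arrays, and the correlation was already small at distances far below the isolation limit.

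Within isolated islands the outermost probes had more signal than the inner ones. In the 664 islands of 5 or more probes, the first and last probe had a median level of 0.11 and the inner probes -0.15. The end probes were higher in 546 islands (82.2%), and the median difference was 0.23. In other clusters it was 0.21, with the end probes higher in 78.6%. By array the median difference in isolated islands was 0.28, 0.26, 0.29 and 0.24 in ERD, 0.32, 0.40 and 0.15 in BLD and 0.07, 0.19 and 0.11 in STD. It was positive on all 10 arrays, and the 3 STD arrays and BLD replicate 3 were lowest. End probes were also longer, at a mean of 48.6 nt against 45.7 nt, and their part in the difference was not tested.

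**Figure D3:**
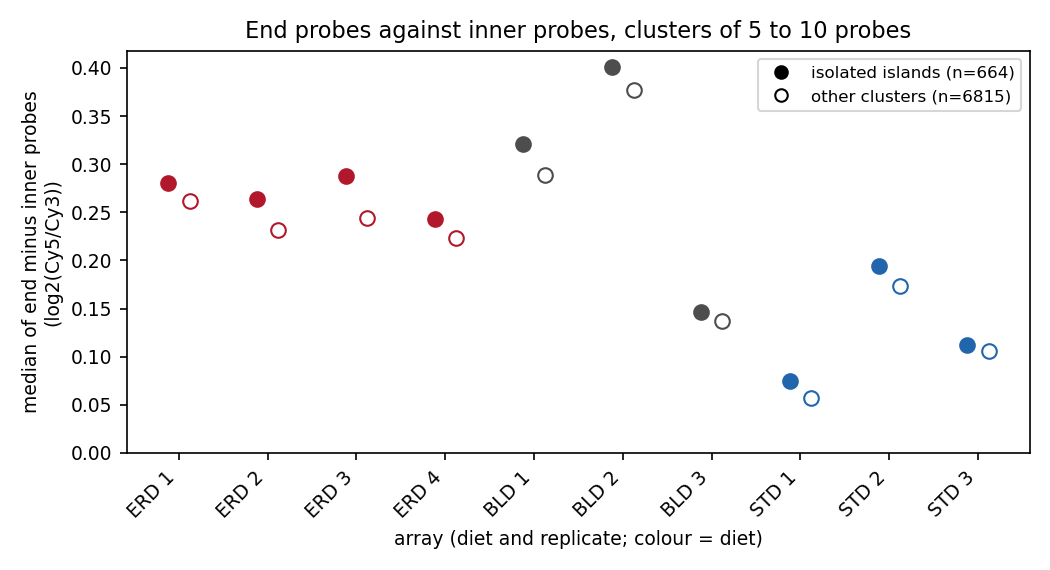
Median difference between end probes and inner probes (log2(Cy5/Cy3)) on each array, for isolated islands of 5 to 10 probes (filled) and other clusters of that size (open), coloured by diet. Isolated islands were above other clusters on each of the 10 arrays.

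Properties of the probes moved with the level over the isolated islands. The 339 islands with the longest probes had a median level of 0.01, and the 339 with the shortest had -0.10. The 339 islands with the least input signal had -0.02, and the 339 with the most had -0.10. Level had a Spearman rho of 0.244 with mean probe length and of -0.164 with input signal over the 1017 islands. Whether these properties set the level was not tested.

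Replicates scattered most where islands were small and dim. The pooled SD within diets had a median of 0.158 in isolated islands and 0.164 in other clusters, and it had a Spearman rho of -0.417 with the number of probes. The 5 islands with the widest spread had 3 or 4 probes and SDs of 0.56 to 0.59, and 43.3 to 67.5% of their spots were well above background. The widest lay on chromosome 16 from 36509719 and had 0.61, 1.48, 0.37 and -0.12 in ERD, 1.48, 1.27 and 0.11 in BLD and -0.22, -0.12 and -0.18 in STD. The 5 narrowest had 7 to 10 probes, SDs of 0.04 to 0.05 and levels of -0.05 to 0.01. In the narrowest, on chromosome 3 from 141831741, the arrays lay between -0.05 and -0.01 in ERD, 0.01 and 0.05 in BLD and -0.05 and 0.06 in STD.

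The first comparison asked whether the n-3-enriched diet moved methylation at isolated islands relative to the standard diet. No isolated island passed an adjusted p of 0.05 in limma fitted over all 13835 clusters, where the share past the threshold was 0.0%. Here and below, all clusters means those of 3 or more probes on all chromosomes. After quantile normalization 2 isolated islands passed, on chromosome 19 from 34266845 and chromosome 2 from 109120716, both lower in ERD. At an unadjusted p under 0.05 there were 159 isolated islands (15.6%), with 68 higher and 91 lower in ERD. With all arrays scaled to 1 interquartile range, 77 of 139 were higher. Over all clusters the share without this scaling was 15.7%, with 7.68% higher and 8.02% lower. The median difference was -0.007 in isolated islands and 0.003 over all clusters. ERD and STD arrays did not overlap in 173 isolated islands (17.0%), against 16.2% of all clusters. The shares of isolated islands were close to those of all clusters, and the islands named below are the ones with the lowest p by rule.

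The named islands that were lower in ERD had difference estimates of -0.74 to -0.44 and adjusted p of 0.0602 to 0.181. The island with the widest of these, on chromosome 6 from 13019691, averaged -1.06 ± 0.19 in ERD (SD, n = 4) and -0.32 ± 0.30 in STD (n = 3), with a limma adjusted p of 0.156. Another, on chromosome 4 from 49072027 to 49072838, had -0.64, -0.46, -0.86 and -0.57 in ERD, -0.47, -0.37 and -0.13 in BLD and -0.12, 0.03 and 0.01 in STD. Its ERD and STD arrays did not overlap, and 7 of its 8 probes had a lower mean in ERD than in STD. The difference was -0.61 ± 0.12 (SE) with an adjusted p of 0.156 in limma. BLD means lay between ERD and STD means in 8 of these 8 islands and in 6 of the 8 named islands that were higher in ERD. The islands were chosen by the lowest p of the ERD minus STD difference, which by itself makes a BLD mean in between likely. How often this held over all clusters is not given here.

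The named islands that were higher in ERD had differences of 0.32 to 1.14 and adjusted p of 0.181 to 0.193. The largest difference, on chromosome 6 from 135994125 to 135994567, came with wide scatter. This island had 0.45, 1.79, 1.33 and 0.49 in ERD, 1.43, 1.30 and 0.46 in BLD and -0.15, 0.16 and -0.41 in STD. The ERD and STD arrays did not overlap, 55.0% of its spots were well above background, and 1 of its 4 probes was not well above background on any array. The difference was 1.14 ± 0.32 with an adjusted p of 0.188 in limma, and it was -0.24 after normexp background correction.

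The island with the lowest p among the higher ones lay on chromosome 6 from 98978453 to 98978913, with its nearest clusters 1411 kb and 491 kb away. It had 0.31, 0.32, 0.39 and 0.25 in ERD, -0.01, -0.12 and -0.08 in BLD and 0.13, -0.26 and -0.22 in STD. All ERD arrays were above all BLD and STD arrays, and all 5 probes had a higher mean in ERD than in STD. The difference was 0.43 ± 0.11 with an adjusted p of 0.181 in limma. The island on chromosome 2 from 62249753 to 62250167 differed in another way, with 0.15, -0.04, 0.11 and -0.11 in ERD, 0.15, 0.22 and -0.08 in BLD and -0.39, -0.33 and -0.44 in STD. There the ERD and BLD arrays overlapped and lay above all STD arrays.

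**Figure D4:**
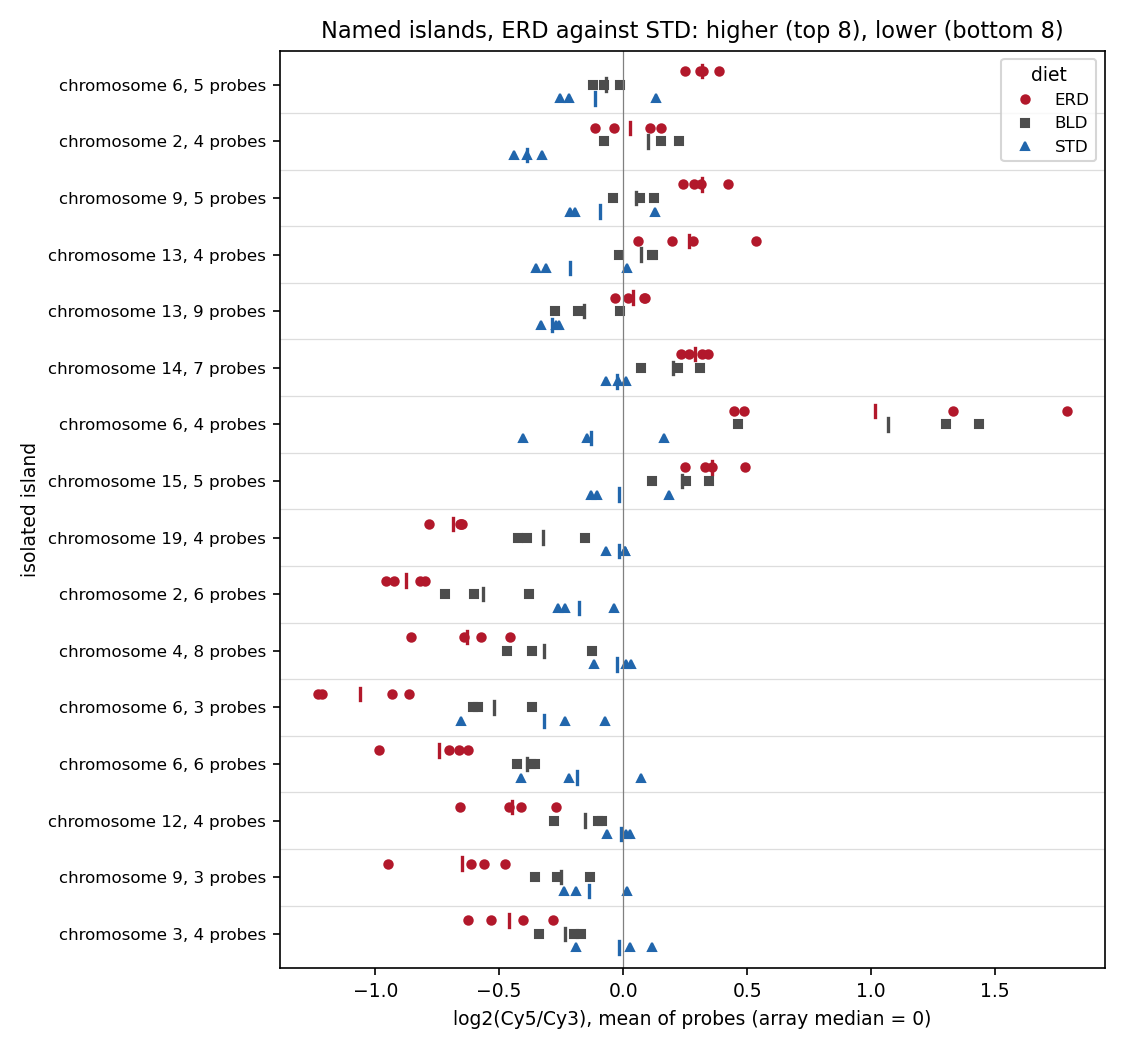
The 8 named isolated islands with higher values in ERD than in STD (top) and the 8 with lower values (bottom), 1 row each. Points are arrays by diet (log2(Cy5/Cy3), array median = 0) and ticks are diet means. The ERD and STD arrays do not overlap in 16 of 16 rows, which the choice by the lowest p made likely. Over all clusters 16.2% did not overlap. None of the islands passed an adjusted p of 0.05 for this difference.

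The direction of the difference followed the BLD mean of the island, and the ERD arrays also had the wider spread. Islands were ranked by their BLD mean, whose arrays are not part of this contrast. Over the isolated islands BLD arrays had a mean Pearson r of 0.659 with ERD arrays and of 0.469 with STD arrays. The ranking is thus not neutral between the diets contrasted. Shares over all clusters ranked in this way are not given here. In the 203 islands of lowest BLD mean the median ERD minus STD difference was -0.13, with 3 higher and 40 lower at an unadjusted p under 0.05. In the 204 of highest BLD mean it was 0.20, with 41 higher and 0 lower. In the 204 of the middle it was -0.01, with 4 higher and 11 lower. With all arrays scaled to 1 interquartile range, the medians were -0.04 in the 203 islands of lowest BLD mean and 0.12 in the 204 of highest. Under that scaling the 8 lower named islands had differences of -0.57 to -0.36, each smaller than before. The 8 higher ones had 0.29 to 1.08, smaller than before in 3 islands and not smaller in the other 5. After normexp background correction the 8 lower named islands had differences of -0.30 to 0.05. The 8 higher ones then had -0.24 to 0.47.

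A trend over the n-3:n-6 ratio, on its log2 scale, asked for a graded response. Of the isolated islands 2 passed an adjusted p of 0.05, against 6 of all 13835 clusters (0.0434%). Both had less signal the richer the diet was in n-3 fatty acids. At an unadjusted p under 0.05 there were 146 isolated islands (14.4%), with 60 positive and 86 negative slopes. The split turned with the processing, with 77 of 150 slopes positive after loess within arrays and 82 of 101 positive after normexp background correction. Over all clusters the share without these changes was 15.0%, with 7.09% positive and 7.94% negative.

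The island on chromosome 19 from 34266845 to 34267333 has 4 probes, with its nearest clusters 800 kb and 281 kb away. Its values were 0.01, -0.07 and 0.01 in STD, -0.39, -0.42 and -0.15 in BLD and -0.78, -0.65, -0.66 and -0.66 in ERD. The 3 diets did not overlap. The slope was -0.12 ± 0.02 per doubling of the ratio (SE), with a limma adjusted p of 0.0394, and the ERD minus STD difference was -0.67 ± 0.09 with an adjusted p of 0.0602. All 4 probes had a lower mean in ERD than in STD, with differences of -1.16 to -0.25, but the last of them was not well above background on any array.

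The island on chromosome 2 from 109120716 to 109121366 has 6 probes, with its nearest clusters 2306 kb and 393 kb away. Its values were -0.26, -0.24 and -0.04 in STD, -0.72, -0.60 and -0.38 in BLD and -0.92, -0.96, -0.82 and -0.80 in ERD. The 3 diets did not overlap. The slope was -0.13 ± 0.02 with a limma adjusted p of 0.0439, and the ERD minus STD difference was -0.70 ± 0.11 with an adjusted p of 0.0602. Of its probes 5 were lower in ERD than in STD, and the first was higher by 0.16. Spots well above background made up 63.3% of this island's spots and 70.0% of those of the island on chromosome 19.

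The nearest clusters of 3 or more probes had smaller differences. Around the chromosome 2 island, the isolated island before it averaged 0.18 ± 0.15 in ERD and 0.08 ± 0.22 in STD, and the cluster after it averaged 0.10 ± 0.19 in ERD and 0.11 ± 0.03 in STD. Around the chromosome 19 island, the island before it averaged -0.06 ± 0.17 in ERD and 0.07 ± 0.05 in STD, and the island after it averaged -0.14 ± 0.09 in ERD and 0.04 ± 0.19 in STD. In limma the trend had unadjusted p of 0.149 to 0.836 in these 4 clusters.

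Both trend calls depended on the arrays and the scaling. With each of 9 arrays left out in turn neither passed, and without BLD replicate 1 both passed. With the slide as a random block the adjusted p was 0.0827 for both, though a block cannot separate slide from diet where a slide held a single diet. With all arrays scaled to 1 interquartile range the adjusted p was 0.06 on chromosome 19 and 0.167 on chromosome 2. After normexp background correction the slopes were -0.01 on chromosome 19 and -0.04 on chromosome 2, with adjusted p of 0.644 and 0.488. The limma adjusted p ranged from 0.0251 to 0.644 and from 0.0415 to 0.488 over the 17 alternatives, of which 3 and 2 kept the call. On the slide that held 2 diets, BLD replicate 3 minus STD replicate 1 was -0.16 on chromosome 19 and -0.12 on chromosome 2.

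**Figure D5:**
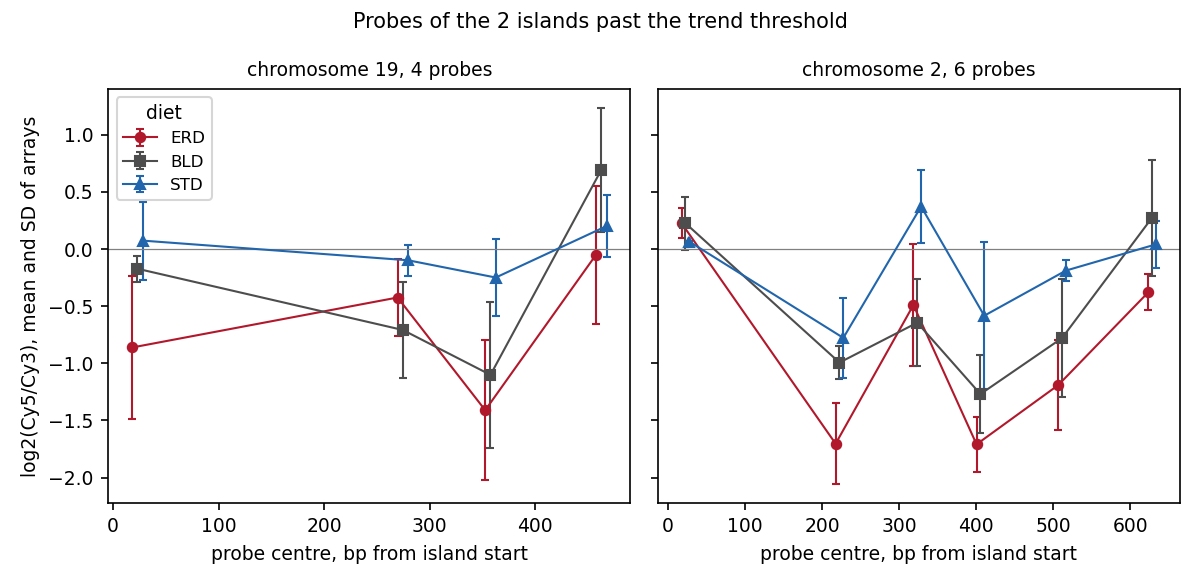
Mean and SD over arrays of log2(Cy5/Cy3) at each probe of the 2 islands past the trend threshold, by diet, against the probe centre in bp from the island's start. The ERD means are the lowest at the inner probes of the chromosome 2 island except the third, and the first probe of that island lies above 0 in every diet.

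The balanced diet was next compared with the standard diet. No isolated island passed an adjusted p of 0.05 in limma (0.0% of all clusters), and 113 (11.1%) had an unadjusted p under 0.05, with 64 higher and 49 lower in BLD. The split turned with the scaling, with 52 of 114 higher after loess, 67 of 159 after quantile normalization and 93 of 139 with arrays scaled to 1 interquartile range. Over all clusters the share without these changes was 11.2%, with 7.31% higher and 3.89% lower. The median difference was 0.013 in isolated islands and 0.030 over all clusters. BLD and STD arrays did not overlap in 186 isolated islands (18.3%), against 17.4% of all clusters. The count of 113 islands depended on the BLD arrays, being 48 when BLD replicate 1 was left out, 63 when replicate 2 was and 191 when replicate 3 was.

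All 16 named islands of this comparison had an adjusted p of 0.44. After normexp background correction the 8 higher ones had differences of -0.30 to 0.33 and the 8 lower ones -0.15 to 0.19. The island on chromosome 18 from 6240800 to 6241664, with 7 probes, had -0.62, -0.72 and -0.40 in BLD and -0.13, 0.05 and 0.09 in STD, with -0.66, -0.15, -0.47 and -0.42 in ERD. The BLD and STD arrays did not overlap, and the difference was -0.59 ± 0.14. First on the higher side was the island on chromosome 2 from 62249753, with a difference of 0.49 ± 0.11.

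The share of isolated islands at an unadjusted p under 0.05 in this comparison was 7.17% at 150 to 200 kb, 10.8% at 200 to 300 kb, 13.8% at 300 to 500 kb and 14.9% beyond 500 kb. The same shares for ERD against STD were 14.3%, 16.5%, 16.8% and 14.9%. For ERD against BLD they were 7.17%, 9.76%, 9.05% and 7.73%, and for the trend the share was lowest beyond 500 kb. A steady rise was thus seen in BLD against STD alone, where the share over all clusters was 11.2%. How the share of other clusters changed with distance is not given here. BLD against STD and ERD against STD share the STD arrays, and none of these orders was tested.

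The enriched diet was last compared with the balanced diet. No isolated island passed an adjusted p of 0.05 in limma (0.0% of all clusters), and 86 (8.46%) had an unadjusted p under 0.05, with 28 higher and 58 lower in ERD. After loess 39 of 73 were higher, and after quantile normalization 47 of 82. Over all clusters the share without these changes was 10.2%, with 3.48% higher and 6.71% lower. The median difference was -0.029 in isolated islands and -0.026 over all clusters. Arrays did not overlap in 105 isolated islands (10.3%), against 10.1% of all clusters. Ranked by STD mean, the median difference was -0.045 in the lowest 203 islands and -0.003 in the highest 204.

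Named islands of this comparison had adjusted p of 0.422 to 0.458. After normexp background correction the 8 higher ones had differences of -0.0035 to 0.43 and the 8 lower ones -0.13 to 0.02. The lowest p was that of the island on chromosome 2 from 17652411 to 17652876, with 3 probes, which had -0.41, -0.27, -0.52 and -0.48 in ERD, 0.24, 0.12 and -0.10 in BLD and -0.17, -0.13 and -0.45 in STD. The ERD and BLD arrays did not overlap, and the difference was -0.51 ± 0.12 with a limma adjusted p of 0.422. On the higher side, the island on chromosome 14 from 37781710 to 37782147 had 0.41, 0.25, 0.18 and -0.04 in ERD, -0.42, -0.36 and -0.07 in BLD and -0.08, -0.13 and -0.12 in STD. All ERD arrays were above all BLD arrays, and the difference was 0.48 ± 0.12 with a limma adjusted p of 0.422.

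A pair of neighbouring isolated islands on chromosome 1, 353 kb apart, was low in BLD arrays 1 and 2. The island from 97210158 had -0.52, -0.46, -0.44 and -0.51 in ERD, -0.69, -0.82 and -0.26 in BLD and -0.12, -0.29 and -0.12 in STD. The island from 97563884 had -0.02, 0.23, -0.04 and 0.00 in ERD, -0.66, -0.59 and -0.09 in BLD and -0.26, -0.07 and 0.07 in STD. In both islands BLD replicate 3 lay nearer to the STD arrays than the other BLD arrays did.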

How the data were processed

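The authors read spot intensity with version 10.7.3.1 of Agilent Feature Extraction, per the file headers; the submitters' processing notes name version 9.0. Processed intensity, as deposited for both channels, had its background subtracted and its dyes scaled linearly without lowess. The deposited log10 ratio of Cy5 over Cy3 in the series value table matched the scanner files to within 0.00498 and served as an alternative. Cy5 marks immunoprecipitated DNA on every array, per the labels, with no dye swap. Probe positions are on mm9 and were not converted.

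For each probe the log2 ratio of processed signals was taken, outlier-flagged spots were dropped, and each array was centred on its median. All 13835 clusters of 3 or more probes, on all chromosomes, were fitted over 10 arrays by lmFit and eBayes of limma 3.58.1 (R 4.3.3). P-values were adjusted after Benjamini and Hochberg and read at 0.05. A separate fit used the log2 of the diet's n-3:n-6 ratio. The fits were tested on simulated data. Every isolated island had a value on all arrays, so no filter removed one. With 3 or 4 arrays a diet, their number limits the precision.

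Islands were named by rule: 8 in each direction by level and per pairwise comparison, taking the lowest p among islands that kept their direction whichever array was left out; 5 in each direction for the trend; 5 each for wide and narrow spread and for isolation; and 3 on each side of the 150 kb limit. The neighbouring pair on chromosome 1 and the 3 islands on chromosome 14 were singled out after their values were seen. The island set and the lists were chosen with earlier results of these data known. Alternatives were normexp (offset 50), loess, quantile normalization, scaling to 1 interquartile range, the value table, probes well above background on all arrays, the median of probes, the slide as a random block, 2 diets alone, leaving out each array, and 200 kb in place of 150 kb.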

Additional observations from a re-analysis of the deposited data

Results flagged for a closer look

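Within the 4 ERD arrays, the named islands were searched for a single array far from the others by Dixon's criterion. Of 82 such groups of 4 values 3 stood out, and chance alone gives about 1 in 20. At the island on chromosome 19 from 34266845, 1 of the 2 past the trend threshold, ERD replicate 1 had -0.78 while the other ERD arrays had -0.66 to -0.65. At the island on chromosome 1 from 97563884, ERD replicate 2 had 0.23 while the others had -0.04 to 0.00. At the island on chromosome 6 from 73198629, ERD replicate 1 had 0.091 while the others had -0.10 to -0.08.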

How the results depend on the processing

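Over the named islands, 1261 of their values under an alternative kept direction and side of the threshold, 29 lost the call, 2 gained it, 18 moved and 15 reversed. Islands of the comparisons and the trend were named among those that kept their direction whichever array was left out. Their direction in those fits was thus fixed by the choice, and the islands of the pairwise comparisons had no call to lose. Of the 18 that moved, 16 did so after normexp. No paired analysis was possible because the replicate numbers are only the order of accession. The dim-probe filter left 673 of the 1017 islands. The labels allow no statement on animals, signal near background limits the small dim islands, and isolated islands of 3 or 4 probes had the widest spread.

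For the count past an adjusted p of 0.05, the values as reported were 0 in the 3 pairwise comparisons and 2 in the trend. Quantile normalization gave 2 for ERD against STD and 1 for the trend. The trend had 0 after normexp, loess, scaling to 1 interquartile range, the dim-probe filter, the median of probes and the slide as a block. Leaving out 1 array at a time gave 0 to 2 for the trend and 0 in each pairwise comparison.

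At an unadjusted p under 0.05, normexp gave 100 islands for ERD against STD (72.0% higher, against 42.8% as reported), 48 for BLD against STD (31.3% higher, against 56.6%) and 9 for ERD against BLD (9 of 9 higher, against 32.6% as reported). It gave 101 for the trend, with 81.2% of slopes positive, against 41.1% as reported. Other settings also moved the share of higher calls. With the dim-probe filter it was 31.3% for ERD against STD, 15.5% for BLD against STD and 73.3% for ERD against BLD. With 1 array left out the counts were 92 to 167 for ERD against STD, 48 to 191 for BLD against STD, 62 to 127 for ERD against BLD and 81 to 170 for the trend. The lows of ERD against STD and of the trend came without STD replicate 3. Shares over all clusters under these alternatives are not given here. Whether the shifts are particular to isolated islands thus cannot be told from these counts.

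Median differences over the islands changed with centring and background. For ERD against STD they were 0.064 after normexp, 0.022 after scaling and -0.040 with the dim-probe filter. For BLD against STD they were -0.015 after quantile normalization, -0.083 with the dim-probe filter and -0.015 with the median of probes. For ERD against BLD they were 0.054 after normexp, 0.0012 after loess, -0.00074 after quantile normalization, 0.023 with the dim-probe filter and -0.0032 with the median of probes. Leaving out 1 array at a time they lay between -0.020 and 0.003 for ERD against STD, -0.001 and 0.030 for BLD against STD and -0.046 and -0.007 for ERD against BLD. The level difference between isolated islands and other clusters was -0.0083 after normexp and -0.027 to -0.023 with 1 array left out.

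All 15 reversals came after normexp, and the cause was not tested. For ERD against STD the values were -0.24 on chromosome 6 from 135994125 and 0.05 on chromosome 6 from 33009816. For BLD against STD they were -0.17 on chromosome 6 from 43215212, -0.03 on chromosome 14 from 33669747, -0.029 on chromosome 3 from 156223751, -0.21 on chromosome 11 from 89864005, -0.30 on chromosome 6 from 135994125, 0.17 on chromosome 4 from 6118023, 0.088 on chromosome 7 from 75893861, 0.17 on chromosome 12 from 54349288 and 0.19 on chromosome 4 from 9595656. For ERD against BLD they were -0.0035 on chromosome 6 from 73198629 and 0.02 on chromosome 5 from 69731538. For the trend they were -0.0061 on chromosome 9 from 41184523 and 0.0088 on chromosome 6 from 33009816.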
